A study of Mus musculus with 8 samples.

Results

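The comparison set mice that carried mCherry with Tert at the p21 locus against mice that carried mCherry alone there, all on a high-fat diet. It rests on 4 of the 8 libraries of the series: Tert HFD rep134 and rep136 (genotype p21+/mCherry-Tert) and mCherry HFD rep128 and rep129 (genotype p21+/mCherry). Each library holds nuclear RNA from the frozen visceral white adipose tissue of 1 mouse, counted droplet by droplet with 10x Genomics 3' chemistry. Every mouse of the series carried mCherry at the p21 locus, so the comparison differs by Tert as labelled, and the p21 gene (Cdkn1a) is altered on 1 allele in both groups. Age and sex are not given in the labels, and the series' design text speaks of the stromal vascular fraction and of p21+/- mice, in conflict with the sample labels, which were followed. The other groups of the series entered the model only to share its estimate of spread: mCherry on a standard diet (SD; rep144, rep146) and TertCi on the high-fat diet (p21+/mCherry-TertCi; rep138, rep140), where the labels do not say what sets TertCi apart from Tert.

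White adipose tissue stores triglyceride in adipocytes, which break it down under beta-adrenergic signals and rebuild it under insulin. In obesity the tissue gathers macrophages around dying adipocytes. Those that take up lipid make the receptor Trem2, the membrane protein Gpnmb, matrix proteases and lysosomal enzymes, and are called lipid-associated macrophages. Tert is the catalytic subunit of telomerase, the enzyme that extends chromosome ends, and p21 is an inhibitor of cyclin-dependent kinases that p53 induces and that marks many senescent cells.

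Unique molecular identifiers (UMIs, 1 per captured RNA molecule) were summed per library over barcodes with at least 1000 UMIs and at most 5% mitochondrial UMIs. This took 113644405 and 14978034 UMIs in mCherry HFD rep128 and rep129, and 59689635 and 7910063 in Tert HFD rep134 and rep136. The barcodes numbered 21996, 4536, 13202 and 3234 in that order, in rep128 and rep134 more than the nuclei that the labels say were loaded. Tert HFD rep136 stood apart: the barcodes used held 33.8% of its UMIs, against 54.2 to 81.3% in the other 3 libraries, and the ribosomal RNA feature Rn18s-rs5 took 8.76% of the UMIs used, against 0.322 to 1.11%. Levels are given below as CPM, each gene's UMIs relative to its library's total after scaling by edgeR's TMM method, with rep128 before rep129 and rep134 before rep136. Each SE given below, in text and figures, is the size of the log2 fold change divided by the square root of the F value of edgeR's test. It restates that test and is no separate measure of the spread between mice. In tissue sums, fewer nuclei of a type and less RNA per nucleus cannot be told apart.

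The labelled locus was read first. Tert stood at 2.73 and 3.21 CPM in the mCherry HFD libraries and at 2.19 and 1.64 in the Tert HFD libraries, from 11 to 390 UMIs a library (log2 fold change -0.58, SE 0.30, edgeR adjusted p 0.198). It was therefore not higher in the libraries labelled Tert, and the 3' counts give no check of that label. Cdkn1a was at 9.89 and 7.86 CPM against 6.49 and 3.43 (log2 fold change -0.79, SE 0.36, edgeR adjusted p 0.149). The mCherry feature held 13 and 0 UMIs against 2 and 0 and was not tested. All directions below are those of the libraries as labelled.

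The Tert HFD libraries differed widely from mCherry HFD: adipocyte, lipid and insulin genes were higher, and genes of lipid-associated macrophages, lysosomes and ribosomal proteins were lower. Of 22678 genes tested, 4249 (18.7%) passed edgeR's quasi-likelihood test, with p-values adjusted by the Benjamini-Hochberg method and a threshold of 0.05. For 4248 of them both Tert HFD libraries lay on the same side of both mCherry HFD libraries, and these are the genes called here, 2007 higher (8.85% of those tested) and 2241 lower (9.88%). Lack of overlap was itself common, at 15673 genes (69.1%), called or not. The lower genes moved further, with a median log2 change of 2.00 in size against 1.23 for the higher ones, and 1123 of them changed more than 4-fold, against 405 of the higher. Their levels were also lower, with a median of 7.14 CPM over the 4 libraries against 28.8 for the higher genes. The part of level in these sizes was not tested.

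**Figure D1:**
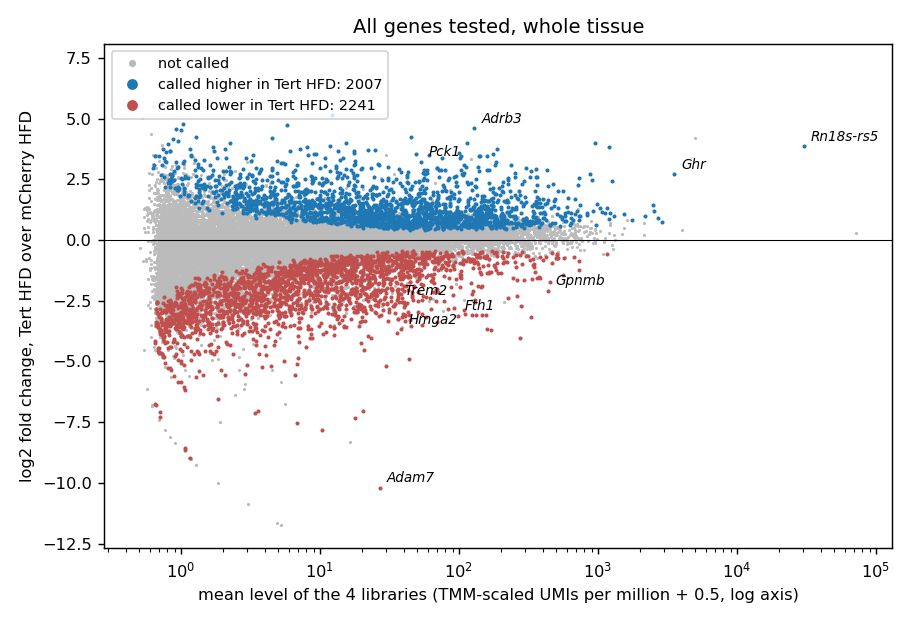
Each point is 1 of the 22678 genes tested; the horizontal axis is the mean level of the 4 libraries (TMM-scaled CPM plus 0.5, log axis) and the vertical axis the log2 fold change, Tert HFD over mCherry HFD. Coloured points are the 2007 genes called higher and the 2241 called lower, and the lower ones reach further from 0; Adam7, far below the rest, was high in mCherry HFD rep128 alone.

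Neither the number of calls nor their split was firm. With scaling by library totals alone, which moved the median of all genes from -0.07 to -0.38 (log2), 835 genes were called higher and 1905 lower. Calls numbered 197 without mCherry HFD rep128, 998 without mCherry HFD rep129, 1119 without Tert HFD rep136, 1918 without TertCi HFD rep138 and 2017 without TertCi HFD rep140. Of the called genes, 190 were called again without rep128 and 1099 without Tert HFD rep136.

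The called genes lay further from mCherry HFD in the shallow library than in the deeper one, although genes that rep136 held below the threshold are not among them. Of the 2007 higher genes, 1690 lay further from mCherry HFD in Tert HFD rep136 than in rep134, with medians of 1.29 against 0.91 (log2). Of the 2241 lower genes, 1980 lay further away in rep136, with medians of -1.68 against -1.26.

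Adipocyte markers were higher in Tert HFD, set beside 8.85% of all genes tested that were called higher. Of 14 adipocyte markers tested, 12 rose and none fell (median log2 2.57, against -0.07 over all genes tested), and their summed level was 1184 and 1233 CPM in mCherry HFD against 4777 and 6227 in Tert HFD. Adrb3, the beta-adrenergic receptor of adipocytes that starts lipolysis, was at 9.05 and 11.5 CPM in mCherry HFD and at 181 and 313 in Tert HFD (log2 fold change 4.59, SE 0.30, edgeR adjusted p 0.00137). It had the highest fold change of the 877 higher genes that reached 50 CPM and had a plain symbol. Plin1, the protein that coats the lipid droplet, was at 44.9 and 47.4 CPM against 214 and 212 (2.21, SE 0.15, edgeR adjusted p 0.00137). Cidec, which fuses droplets, was at 72.2 and 70.3 against 377 and 489 CPM (2.60, SE 0.22, edgeR adjusted p 0.00178). Acvr1c, an activin receptor of fat cells, was at 21.4 and 28.5 against 206 and 191 CPM (3.00, SE 0.21, edgeR adjusted p 0.00137). The 2 groups were clearly apart in all 4 genes, and for Plin1 the Tert HFD libraries were nearly equal. The 2 markers not called were Pparg, the master regulator of fat cell formation, at 436 and 409 CPM against 670 and 1370 (1.27, edgeR adjusted p 0.0548), and Cidea (0.62).

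Of 13 lipolysis genes, 11 rose and none fell (median 1.501). For this and the next lists, the shares over all genes tested were 8.85% higher and 9.88% lower. Lipe, hormone-sensitive lipase, was at 40.2 and 39.6 CPM in mCherry HFD and at 204 and 378 in Tert HFD (2.86, SE 0.28, edgeR adjusted p 0.0024). Prkar2b, a regulatory subunit of protein kinase A, was at 88.1 and 94.9 against 476 and 516 CPM (2.44, SE 0.18, edgeR adjusted p 0.00166). Genes of fat synthesis were also higher in these tissue sums, while fat turnover itself was not measured. Of 14 genes of triglyceride synthesis and the lipid droplet 12 rose and none fell (median 2.16). Of 13 genes of de novo lipogenesis 6 rose and none fell (median 1.80). Pck1, which makes glycerol backbone for triglyceride in fat, was at 11.1 and 9.36 against 102 and 90.6 CPM (3.23, SE 0.23, edgeR adjusted p 0.00145). Scd1, the desaturase of stearoyl-CoA, was at 28.0 and 28.9 against 132 and 236 CPM (2.69, SE 0.26, edgeR adjusted p 0.0024). Mlxipl, the carbohydrate-responsive transcription factor ChREBP, rose by 3.56, Thrsp by 3.10, the droplet coat gene Plin4 by 2.11 and the acetyl-CoA carboxylase gene Acacb by 1.80. Pnpla3 (3.46) and the pyruvate carboxylase gene Pcx (3.23), outside these lists, were also among the 15 largest increases. Fatty acid uptake was mixed, with 3 of 11 genes higher (Cav1, Cavin1 and Acsl1, at 2.32, 2.26 and 1.61) and Fabp5, a fatty acid binding protein of macrophages, lower (-2.21). Without mCherry HFD rep128 or rep129 1 of these was called higher, without Tert HFD rep136 2, and in each of these fits none lower.

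Insulin signalling genes followed, with 11 of 15 higher and none lower (median 1.13). Here and for the adipokines below, 8.85% of all genes tested were called higher. Irs1, the receptor's docking protein, was at 34.4 and 46.1 CPM in mCherry HFD and at 106 and 156 in Tert HFD (1.70, SE 0.22, edgeR adjusted p 0.00578). Trarg1, a partner of the glucose transporter GLUT4, rose by 2.89 and Pde3b, which ends the lipolytic signal under insulin, by 1.501. Of 11 adipokines 5 rose and none fell (median 1.46). Retn (resistin) was at 4.72 and 5.70 against 42.6 and 38.5 CPM (2.98, SE 0.23, edgeR adjusted p 0.00169). Nrg4 was at 31.6 and 28.7 against 184 and 306 CPM (3.02, SE 0.25, edgeR adjusted p 0.00175). Adipoq (adiponectin) rose by 2.18. Lep (leptin) was uneven within the group, at 26.1 and 27.2 CPM against 79.7 and 248 (2.61, SE 0.51, edgeR adjusted p 0.0177).

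Ghr, the growth hormone receptor, rose from 701 and 1161 CPM to 4015 and 8238 (2.72, SE 0.44, edgeR adjusted p 0.0106). Of the 9 genes of that pathway 3 rose, Ghr, its feedback inhibitor Cish (1.21) and the repressor Bcl6 (0.97), and none fell (median 0.46). Among all genes tested 8.85% were called higher. Igf1, the hormone that growth hormone induces, was at 275 and 328 against 381 and 298 CPM, overlapping between groups (0.18, edgeR adjusted p 0.68). Of 14 adipogenic transcription factors 6 rose and none fell (median 0.84), among them Zfp423 (2.16), Klf15 (1.88), Ebf1 (1.42) and Rxra (1.43). Of 7 thermogenic genes tested 3 rose (Adrb3, Prdm16 at 0.92 and Ppargc1a at 0.89), while Ucp1, the uncoupling protein of brown fat, had too few UMIs to be tested. Of the 7, 1 was called without mCherry HFD rep128, rep129 or Tert HFD rep136.

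Some genes stand in more than 1 of these lists, so the counts partly repeat the same genes. Adrb3 is in the adipocyte and thermogenic lists, Adipoq and Lep in the adipocyte and adipokine lists, and Acsl1 in the adipocyte and fatty acid uptake lists. The lists lost members when a library was left out. Without mCherry HFD rep128 the higher calls were 7 adipocyte markers, 5 lipolysis, 3 triglyceride, 1 lipogenesis and 2 adipokine genes, and none of the insulin, transcription factor or growth hormone genes. Without mCherry HFD rep129 they were 10, 6, 9, 2 and 3, with 6 insulin, 2 transcription factor and 2 growth hormone genes. Without Tert HFD rep136 they were 12, 8, 10, 3 and 4, with 7, 3 and 1. Named genes that lost their call without rep128 included, with their log2 change there, Ghr (2.40), Lep (2.58), Adipoq (2.14), Irs1 (1.498), Mlxipl (3.80) and Pnpla3 (3.29). Adrb3, Plin1, Cidec, Lipe, Prkar2b, Pck1, Scd1, Pcx, Retn, Nrg4 and Cav1 were called in all 8 fits that left out 1 library.

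**Figure D2:**
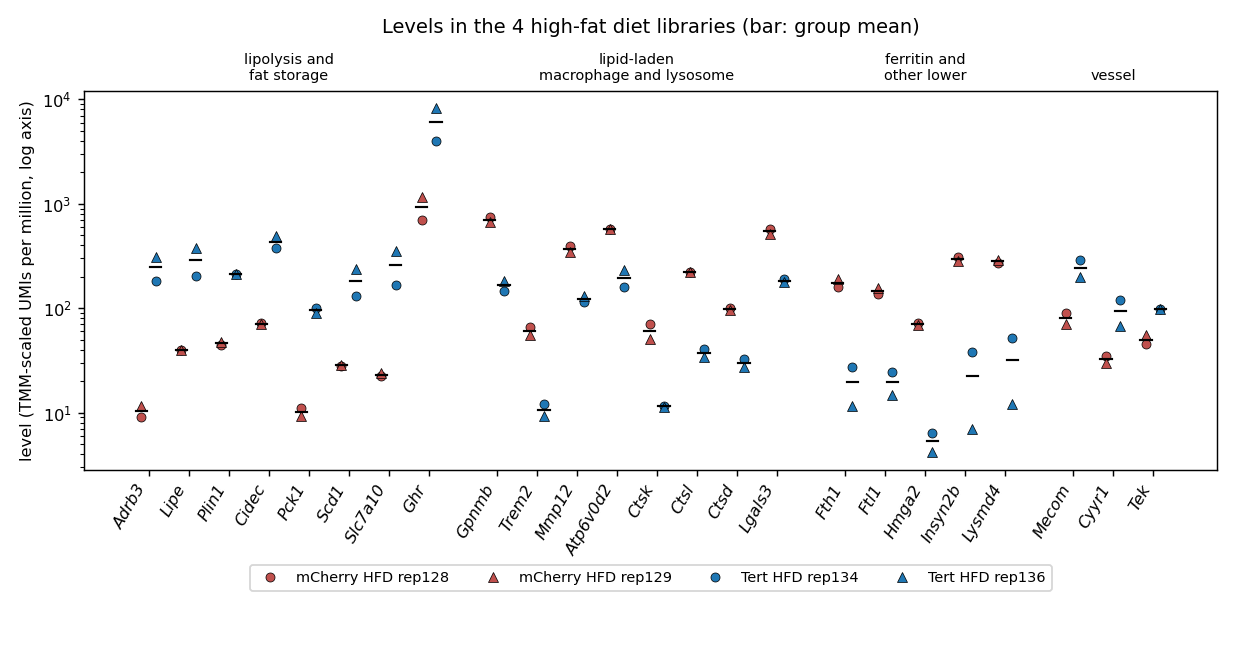
Level of 24 genes in each of the 4 libraries (TMM-scaled CPM, log axis); circles and triangles are the 2 libraries of a group and the bar is the group mean. In every gene drawn the 2 groups lie apart, with lipid and vessel genes higher and macrophage, lysosome and ferritin genes lower in Tert HFD; the genes were picked for drawing after their values were known.

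Other large increases were in genes less tied to fat storage. Chst1, a sulfotransferase, was at 3.67 and 5.59 CPM in mCherry HFD and at 40.1 and 131 in Tert HFD (4.23, SE 0.57, edgeR adjusted p 0.00652). Trhde, an ectoenzyme that degrades thyrotropin-releasing hormone, was at 11.6 and 15.2 against 143 and 287 CPM (4.01, SE 0.37, edgeR adjusted p 0.00219). Mageb18 was at 173 and 145.6 against 1577 and 2947 CPM (3.83, SE 0.37, edgeR adjusted p 0.0024). All 3 were several times higher in both Tert HFD libraries, and further in rep136. Further genes of this rank were the imprinted gene Peg3 (3.55), Cadps (3.49), Slc7a10 (3.48), the lipid-antigen presenter Cd1d1 (3.46), the glutamate transporter Slc1a3 (3.45) and Taco1 (4.00). Without mCherry HFD rep128 the calls of Chst1 (3.91), Peg3 (3.63), Cadps (3.75) and Slc1a3 (3.11) were lost, and that of Peg3 also without rep129 (3.49). Taco1 was at 69.1 and 155 CPM in mCherry HFD against 369 and 3220 in Tert HFD. It was called in 3 of the 8 fits that left out 1 library, and its call was lost when Tert HFD rep136 (1.75), either mCherry HFD library (3.53 for rep128 and 4.71 for rep129) or either TertCi HFD library (4.01 for each) was the one left out.

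Macrophage genes moved the other way, and most of all those of the lipid-associated state. Of 16 lipid-associated macrophage genes 12 fell and none rose (median -1.56), and their summed level was 5660 and 5165 CPM in mCherry HFD against 2833 and 2530 in Tert HFD. Of 13 general macrophage markers 7 fell and none rose (median -1.18). Of 13 genes of resident perivascular macrophages none was called by edgeR (median -0.06), and 6 had an unadjusted p under 0.05. Over all genes tested 9.88% were called lower. These lists were drawn up with earlier results of the same libraries known, so their direction is a description.

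Gpnmb was at 743 and 666 CPM in mCherry HFD and at 147 and 184 in Tert HFD (-2.09, SE 0.18, edgeR adjusted p 0.00175). Trem2, the lipid-sensing receptor, was at 65.8 and 55.2 against 12.0 and 9.25 CPM (-2.49, SE 0.20, edgeR adjusted p 0.00169). Mmp12, macrophage elastase, was at 390 and 348 against 116 and 131 CPM (-1.58, SE 0.16, edgeR adjusted p 0.00261). The groups were far apart and the libraries of each group close together in all 3. Tyrobp, the adaptor that passes on the Trem2 signal, fell by 2.33 on the log2 scale, and the macrophage marker Cd68 by 2.81. Ctss fell by 1.22 and Mpeg1 by 1.64. In contrast F13a1, a perivascular macrophage gene, was at 619 and 689 against 1399 and 870 CPM (0.79, edgeR adjusted p 0.0682), and Mrc1, the mannose receptor, at 536 and 606 against 694 and 445 (edgeR adjusted p 0.997). Selenop (-0.54) and Gas6 (0.02) were not called either, and the sign of Gas6 and Mrc1 changed with the scaling or the library left out.

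Lysosomal genes fell in part: 9 of 17 were lower and 1 higher (median -0.64). Ctsl, a cysteine protease of the lysosome, was at 223 and 221 CPM in mCherry HFD and at 40.9 and 34.2 in Tert HFD (-2.56, SE 0.23, edgeR adjusted p 0.00208). Atp6v0d2, a proton pump subunit of macrophages and osteoclasts, was at 575 and 573 against 159 and 233 CPM (-1.55, SE 0.19, edgeR adjusted p 0.00502). Ctsk, a collagen-degrading cathepsin of the lipid-associated list, was at 70.0 and 50.5 against 11.7 and 11.3 CPM (-2.39, SE 0.23, edgeR adjusted p 0.00242). In all 3 both Tert HFD libraries lay far below both mCherry HFD libraries. Ctsd fell by 1.71, Ctsb by 1.03 and the membrane protein Lamp1 by 0.97. Of 13 cholesterol handling genes 5 fell, among them Soat1 (-0.97), which esterifies cholesterol for storage, Lrp1 (-0.65) and the exporter Abcg1 (-0.70), while the exporter Abca1 rose (0.60). The shares over all genes tested were 9.88% lower and 8.85% higher.

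Lysosomal genes share a promoter element, the CLEAR motif, that the factors TFEB and TFE3 bind, and its core can be read in the promoters of this list. The 250 bases before each start site were searched on both strands for TCACGTG. It stood in 1028 of 32851 promoters (3.13%) and in those of 4 of the 12 lysosomal genes that have a promoter in the RefSeq table for GRCm38.p6: Ctsd, Lamp1, Atp6v1a and Mcoln1. This motif and list were chosen for printing after the matches were seen, out of 9 motifs searched in 4 lists (lysosome, lipid-associated macrophage, adipocyte marker and triglyceride genes; 36 pairs of motif and list), and a longer form of it, TCACGTGA, or one shifted by a base, GTCACGTG, overlaps it. The other motifs were the M-box form TCATGTGA, the GC box core GGGCGG, the letters TTTCCGG and separately ACAAAGG, the PPAR direct repeat and a gapped string that ends in GAA. A match is a description of the letters only. The 4 promoters are shown because their genes did not move alike; capitals mark the motif and its reverse complement, which overlap in places. They lie at chr7:142387828-142388077 on the minus strand (Ctsd), chr8:13158911-13159160 on the plus strand (Lamp1), chr16:44139260-44139509 on the minus strand (Atp6v1a) and chr8:3500269-3500518 on the plus strand (Mcoln1).
Ctsd: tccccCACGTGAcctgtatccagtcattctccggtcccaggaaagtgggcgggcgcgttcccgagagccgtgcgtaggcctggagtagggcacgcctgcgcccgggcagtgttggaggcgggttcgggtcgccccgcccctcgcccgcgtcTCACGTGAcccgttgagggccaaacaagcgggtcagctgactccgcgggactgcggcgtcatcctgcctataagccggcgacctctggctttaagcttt
Lamp1: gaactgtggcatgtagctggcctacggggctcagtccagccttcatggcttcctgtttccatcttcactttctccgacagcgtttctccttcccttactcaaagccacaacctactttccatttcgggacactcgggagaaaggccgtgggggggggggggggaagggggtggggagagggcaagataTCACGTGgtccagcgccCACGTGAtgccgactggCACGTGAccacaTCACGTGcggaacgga
Atp6v1a: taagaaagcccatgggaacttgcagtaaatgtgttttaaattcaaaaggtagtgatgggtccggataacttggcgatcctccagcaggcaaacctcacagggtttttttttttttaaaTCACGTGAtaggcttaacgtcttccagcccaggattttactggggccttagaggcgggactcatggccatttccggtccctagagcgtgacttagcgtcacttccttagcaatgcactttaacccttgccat
Mcoln1: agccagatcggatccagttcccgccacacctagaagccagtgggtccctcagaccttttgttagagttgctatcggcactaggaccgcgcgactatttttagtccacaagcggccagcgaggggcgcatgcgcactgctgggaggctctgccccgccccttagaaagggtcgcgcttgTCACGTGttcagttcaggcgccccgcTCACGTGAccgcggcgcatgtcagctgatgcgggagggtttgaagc
Of these, Lamp1, with 4 separate stretches, was at 110 and 111 CPM against 61.2 and 51.0 (-0.97, SE 0.14, edgeR adjusted p 0.00743). Ctsd, with 2 stretches, was at 100.35 and 96.9 against 32.6 and 27.3 CPM (-1.71, SE 0.21, edgeR adjusted p 0.00507). Atp6v1a, with 1, was at 202 and 210 against 107 and 161 CPM and was not called (-0.63, SE 0.20, edgeR adjusted p 0.0659). Mcoln1, a calcium channel of the lysosome with 2 stretches, was at 18.9 and 15.9 against 20.7 and 24.3 CPM, with no call and the opposite sign (0.36, SE 0.20, edgeR adjusted p 0.213). The motif thus stood both before genes that fell and before genes that did not pass the test.

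Without mCherry HFD rep128 the calls were 6 in the lipid-associated list, 1 among macrophage markers, 2 among lysosomal genes and none among cholesterol genes. Without rep129 they were 11, 5, 7 and 1, and without Tert HFD rep136 10, 3, 6 and 1. When Tert HFD rep134 was left out, 7 perivascular macrophage genes were called lower, and without rep136 1 was called higher. Gpnmb, Trem2, Mmp12, Tyrobp, Ctsl, Ctsk and Atp6v0d2 were called in all 8 fits that left out 1 library. Lost without rep128 were Cd68 (-2.36), Ctss (-1.08), Mpeg1 (-1.43), Ctsd (-1.69), Ctsb (-1.06), Lamp1 (-0.99), Soat1 (-0.88), Lrp1 (-0.64), Abcg1 (-0.63) and Abca1 (0.53), and the last 3 also without rep129 (-0.64, -0.75 and 0.68) or rep136 (-0.63, -0.67 and 0.58). Without rep136 the calls of Ctss (-1.20) and Mpeg1 (-1.34) were lost too, and that of Abca1 was also lost without TertCi HFD rep138 (0.60) or rep140 (0.62).

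Among called genes of at least 50 CPM with a plain symbol, several of the largest decreases were in genes outside the macrophage lists. Hmga2, a chromatin protein of growing and senescent cells, was at 72.2 and 68.7 CPM in mCherry HFD and at 6.43 and 4.18 in Tert HFD (-3.67, SE 0.24, edgeR adjusted p 0.00137), and was called in all 8 fits that left out 1 library. Insyn2b, named for inhibitory synapses, was at 312 and 281 against 37.8 and 7.01 CPM (-3.65, SE 0.68, edgeR adjusted p 0.0155). Fth1, the heavy chain of ferritin, was at 160 and 191 against 27.6 and 11.5 CPM (-3.11, SE 0.50, edgeR adjusted p 0.0105). Ftl1, its light chain, was at 136.4 and 156 against 24.8 and 14.6 CPM (-2.86, SE 0.31, edgeR adjusted p 0.00358). Both chains of the iron store thus fell together, Ftl1 in all 8 such fits and Fth1 and Insyn2b in all but that without rep128 (-3.25 and -3.58). Lysmd4 (-3.09), Raet1e (-3.01), a ligand of the natural killer receptor NKG2D, and Timp1 (-2.77), an inhibitor of metalloproteases, fell by similar amounts, Raet1e and Timp1 in all 8 such fits. Lysmd4 lost its call without rep128 (-3.16), rep129 (-3.01) or Tert HFD rep136 (-2.42). Of similar size were Egfros (-3.29), Glp2r (-3.04), Far1os (-2.97), Gcnt7 (-2.97), Insyn2a (-2.97) and Lrrc4 (-2.90). None of these 6 was called without mCherry HFD rep128 (-3.39 to -2.82), rep129 (-3.24 to -2.89), Tert HFD rep136 (-2.58 to -2.21), or either TertCi HFD library.

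The 3 lowest fold changes of the 309 lower genes that reached 50 CPM and had a plain symbol rested on mCherry HFD rep128. Adam7, known from the epididymis, was at 104 and 1.16 CPM in mCherry HFD and at 0.030 and 0.149 in Tert HFD (-10.20, SE 2.61, edgeR adjusted p 0.0405). Lipc, hepatic lipase, was at 113 and 2.38 against 1.84 and 1.04 CPM, and Zfp804b at 157 and 9.97 against 3.33 and 1.79. The calls of these genes were lost without rep128, where their log2 changes were -4.52, -0.64 and -1.88. They were also lost without either Tert HFD or either TertCi HFD library. Epithelial markers went with them, at a summed 27.2 CPM in rep128 against 4.82 in rep129 and 5.19 and 2.39 in Tert HFD; their part in these decreases was not tested.

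Genes for short, abundant proteins of translation were lower as a group. Of 83 ribosomal protein genes 70 fell and none rose (median -1.72), with a summed level of 2780 and 2462 CPM against 986 and 588. Of 13 mitochondrially encoded genes 5 fell (median -1.57), although their summed level overlapped between groups, at 202 and 583 CPM against 178 and 348. Of 39 proteasome subunit genes 2 fell (median -0.22). These 3 lists were chosen after the data were seen. Among all genes tested 9.88% were called lower. Of 14 nuclear respiratory chain genes 3 fell (Cox7c at -1.61, Cox4i1 at -1.48 and Ndufa4 at -0.79; median -0.36), and none of the 3 was called without mCherry HFD rep128 (-1.502, -1.62 and -0.88) or without Tert HFD rep136 (-1.42, -1.20 and -0.82). In nuclear preparations such spliced transcripts also come from cytoplasm and free RNA. In barcodes with at least 100 and under 500 UMIs, taken as free RNA, Fth1 stood at 1389 and 1164 CPM in mCherry HFD and at 112 and 32.1 in Tert HFD. Free RNA levels, here and below, are relative to all UMIs of such barcodes without TMM scaling, unlike the other levels. The part of free RNA in these decreases was not tested.

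The called genes also differed in kind. By gene models of GENCODE vM21, matched by gene identifier for 96.5% of genes tested, the median gene length was 46047 bases among higher genes, 9760 among lower genes and 17754 among all genes tested. Antisense transcripts made up 20.3% of the lower genes and 1.72% of the higher, against 7.68% of all. Whether the authors' counting used strand is not given in the sources used here, so reads of an antisense gene and of its partner may not have been told apart.

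Vessel genes were higher, set beside 8.85% of all genes tested that were called higher. Of 12 endothelial markers 7 rose and none fell (median 1.06), with a summed level of 361 and 317 CPM against 953 and 632. Mecom, a transcription factor made by endothelium, was at 89.6 and 70.1 CPM in mCherry HFD and at 290 and 199 in Tert HFD (1.62, SE 0.26, edgeR adjusted p 0.0106). Tek, the angiopoietin receptor, was at 45.2 and 55.1 against 99.0 and 98.2 CPM (0.98, SE 0.20, edgeR adjusted p 0.0198). Cyyr1 (1.54) and Egfl7 (1.62) rose as well. None of the 12 was called without mCherry HFD rep128 or without rep129, and none with scaling by library totals alone; the log2 changes of Mecom were then 1.80 and 1.47 without those libraries, and of Tek 0.83 and 1.14. Of 10 pericyte and smooth muscle markers 1 rose, Mcam, an adhesion molecule also made by endothelium, at 14.9 and 15.2 against 71.9 and 133.6 CPM (2.76, SE 0.30, edgeR adjusted p 0.00357).

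Calls among markers of other cell types are set beside 8.85% of all genes tested called higher and 9.88% called lower. Of 14 stromal progenitor markers 3 fell, Col1a1 (-1.09), Lum (-1.41) and Cxcl14 (-2.05), and none rose (median -0.19), with a summed level of 2399 and 3278 CPM against 3159 and 2483. Of 16 collagen and matrix genes 5 rose, among them Col5a1 (1.29) and Col4a2 (0.91), a collagen of basement membranes, and 2 fell, Col1a1 and Timp1. Of 9 dendritic cell markers 1 rose, Zbtb46 (0.79, list median -0.43), and of 4 neutrophil markers 1, Mmp9 (2.10, list median 0.04). Of 10 B and plasma cell markers 1 fell, Jchain (-1.83), and of 6 lymphatic vessel markers 1, Ccl21a (-2.46, list median -0.395). B and plasma cell markers had a median of -1.63, with 6 of 10 at an unadjusted p under 0.05, and epithelial markers one of -3.19. The summed level of the B and plasma cell markers overlapped between groups, at 148 and 229 CPM in mCherry HFD against 220 and 206 in Tert HFD. Its members went both ways, and DESeq2 called 1 higher and 3 lower. No marker of monocytes (9 tested), T and NK cells (15), mast cells (5), mesothelium (10), Schwann cells (4) or epithelium (5) was called by edgeR; 0, 1, 1, 1, 1 and 1 of them had an unadjusted p under 0.05. Without mCherry HFD rep128 none of the genes named here but Timp1 was called, with log2 changes of -1.08 for Col1a1, -1.49 for Lum, -1.76 for Cxcl14, 1.18 for Col5a1, 0.83 for Col4a2, 0.70 for Zbtb46, 2.72 for Mmp9, -2.03 for Jchain and -1.34 for Ccl21a. The same genes lost their call without Tert HFD rep136, and without mCherry HFD rep129 all of them but Ccl21a. Without Tert HFD rep134 more markers were called lower: 6 of B and plasma cells, 3 of dendritic cells, 3 of lymphatic vessels and 2 each of monocytes, T and NK cells and mesothelium.

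**Figure D3:**
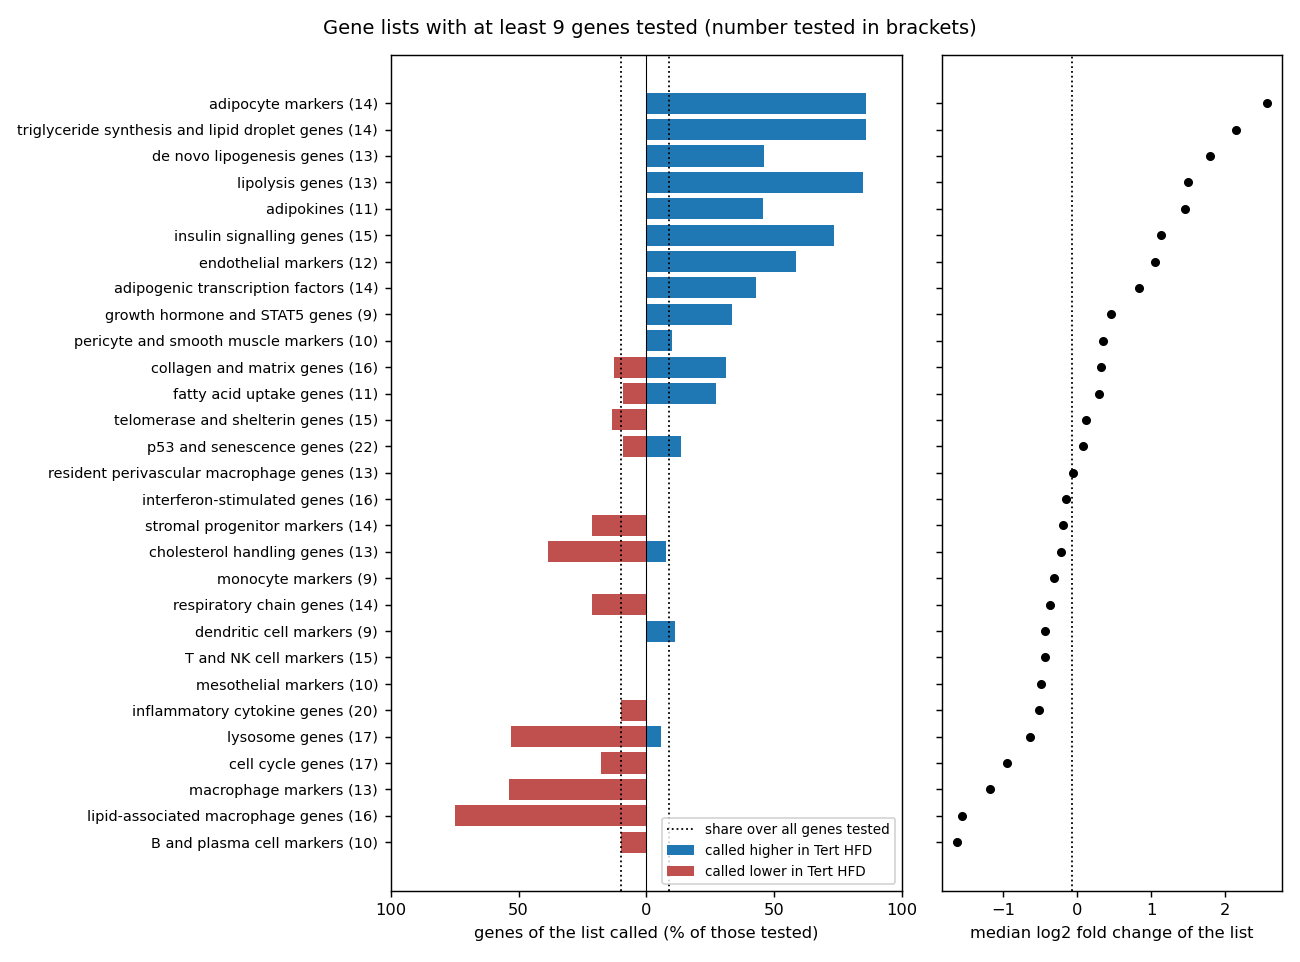
Left, the share of each list's tested genes called higher (to the right) or lower (to the left) in Tert HFD, in percent, with dotted lines at the shares over all genes tested (8.85 and 9.88%); right, the list's median log2 fold change, with a dotted line at the median of all genes. Adipocyte markers and lipid lists lie at the top with medians up to 2.57, and lipid-associated macrophage genes near the bottom at -1.56; lists with under 9 genes tested are not drawn, and of those drawn B and plasma cell markers have the lowest median (-1.63), with 1 gene called.

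Calls among genes of senescence, telomeres and inflammation are set beside 8.85% of all genes tested called higher and 9.88% called lower. Of 22 genes of the p53 response and senescence 3 rose and 2 fell (median 0.08), a share near that of all genes. The death receptor Fas was at 23.7 and 26.9 CPM against 54.3 and 84.6 (1.45, SE 0.21, edgeR adjusted p 0.00802), and Sesn2 (1.43) and Phlda3 (0.87) also rose. Gdf15, a stress cytokine, fell (-2.12), as did the kinase inhibitor Cdkn2b (-1.33). Of 15 telomerase and shelterin genes 2 fell, Dkc1 (-1.44), which holds telomerase RNA, and Tinf2 (-1.17), a shelterin subunit (median 0.11). Of 20 inflammatory genes 2 fell, Tnf (-1.62) and the interleukin-1 antagonist Il1rn (-2.20; median -0.52). Of 16 interferon-stimulated genes and 7 genes of MHC class II none was called by edgeR; 2 and 3 of them had an unadjusted p under 0.05. Without Tert HFD rep134, 3 interferon-stimulated, 4 MHC class II and 6 inflammatory genes were called lower, and over all barcodes 1, 4 and 5.

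Of 17 cell cycle genes 3 fell (median -0.95), beside 9.88% of all genes tested: Pcna (-1.16), Mki67 (-1.34) and Top2a (-1.31). None of the 17 was called without mCherry HFD rep128, rep129 or Tert HFD rep136, where Pcna stood at -1.20, -1.12 and -0.99. Without rep128 no gene of the p53, telomere and inflammatory lists was called, with log2 changes of 1.35 for Fas, 1.52 for Sesn2, 0.84 for Phlda3, -2.06 for Gdf15, -1.41 for Dkc1, -1.06 for Tinf2, -2.15 for Il1rn and -1.21 for Tnf. Fas, Sesn2, Dkc1 and Il1rn kept their call without any other library.

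To separate the number of nuclei from their content, barcodes were sorted by marker genes after each was thinned to 1000 UMIs. A barcode entered a class when it held at least 2 of the 8 adipocyte, 9 macrophage or 7 stromal gate genes and fewer than 2 of each other gate. The adipocyte class took 1.16 and 1.57% of barcodes in mCherry HFD (255 and 71 barcodes) and 9.72 and 29.6% in Tert HFD (1283 and 957). The macrophage class took 46.3 and 34.5% against 25.7 and 15.1%, and the stromal class 18.2 and 27.8% against 26.5 and 18.5%. The groups did not overlap for the first 2 classes and overlapped for the third, and with 2 libraries against 2 the exact permutation test, taken on both sides, can give no p below 0.333, its value for both.

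The gates overlapped. Of barcodes past the macrophage gate, 0.934 and 1.06% also passed the adipocyte gate in mCherry HFD and 9.38 and 12.0% in Tert HFD; the part of free RNA or of doublets in this overlap was not tested. The median adipocyte-class barcode held 12738 and 6181 UMIs in mCherry HFD and 5836 and 2306 in Tert HFD, against 3493, 2117, 2818 and 1446 in the macrophage class. Barcodes of more than 1 class (6.03 to 14.2%) were left out and no doublet caller was run. At the gate's limit, with just 2 gate genes, stood 63 and 26 of the adipocyte-class barcodes in mCherry HFD and 366 and 297 in Tert HFD.

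**Figure D4:**
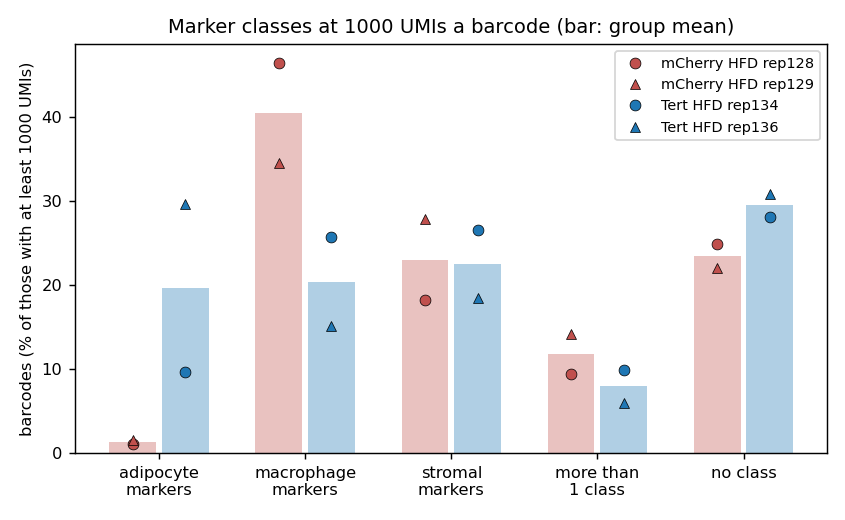
Share of barcodes with at least 1000 UMIs in each marker class, in percent; points are libraries and bars group means. Adipocyte-class shares are 1.16 and 1.57% in mCherry HFD against 9.72 and 29.6% in Tert HFD, macrophage-class shares are lower in Tert HFD, and stromal shares overlap.

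Within adipocyte-class barcodes several macrophage transcripts were lower. The level of the gate genes there is largely set by the gate and is given as a description. Of 17947 genes tested, 182 were called with groups apart, 62 higher (0.345%) and 120 lower (0.669%); without gate genes these were 61 and 119. The gate gene Adrb3 was at 147 and 113 CPM against 578 and 590 (2.14), and the gate genes Plin1 and Cidec changed by -0.10 and 0.21. The gate bears on these values, so no test of them is given. Of genes outside the gate, Cadps rose by 2.72, Chst1 by 2.51 and Scd1 by 1.24. Trhde rose by 1.49, from 181 and 165 CPM to 430 and 547, and the guidance ligand gene Slit3 by 1.48, from 685 and 790 to 1922 and 2185. Ghr was at 7684 and 10434 against 11394 and 14447 CPM and was not called (0.51, SE 0.32, edgeR adjusted p 0.349). Of the fat lists raised in tissue, few genes were called in this class. Of 13 lipolysis genes 1 rose (median 0.02), of 13 lipogenesis genes 1 (0.70) and of 14 triglyceride genes 0 (0.23). Of 15 insulin genes, 10 adipokines, 14 transcription factors and 9 growth hormone genes none was called (0.37, 0.42, 0.40 and 0.23). Here 0.345% of all genes tested were called higher. Some members, such as Lipe and Adipoq, are gate genes.

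Lower in the same barcodes were Insyn2b (-3.39), Gnal (-3.17), Ggact (-2.97), Ftl1 (-2.60), Hpgds (-2.35), Lyz2 (-2.21), Gpnmb (-2.12) and Ctsl (-2.08), of which several are macrophage genes. Gpnmb was at 291 and 253 CPM against 49.4 and 78.1, and 7 of the 16 lipid-associated macrophage genes were called lower. Of barcodes past the adipocyte gate, 26.0 and 17.2% in mCherry HFD and 19.0 and 6.22% in Tert HFD also passed the macrophage gate. These were left out of the class. In free RNA Gpnmb was at 1198 and 1086 against 197 and 265 CPM. The part in these decreases of free RNA, or of macrophage RNA below the gate's limit, was not tested. These calls were few and unsteady: edgeR called 0 genes without mCherry HFD rep128 and 0 without rep129, with 2591 and 3445 at an unadjusted p under 0.05, 2 when Tert HFD rep136 was left out and 1098 when rep134 was, and DESeq2 called 973 with all libraries.

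Lipid-associated genes were lower in macrophage-class barcodes too. Of 14524 genes tested, those called with groups apart were 1017 higher (7%) and 1681 lower (11.6%), and of 16 lipid-associated genes 14 were lower (median -1.19). Gpnmb was at 1058 and 914 CPM against 289 and 339 (-1.66, SE 0.18, edgeR adjusted p 0.00052). Trem2 was at 103 and 82.2 against 25.1 and 28.3 CPM (-1.85, SE 0.20, edgeR adjusted p 0.000483). Both genes were well apart between the groups, with close libraries within each. The same list had a median of -1.35 in the adipocyte class and -1.77 in the stromal class. Gpnmb was also lower in free RNA, at the levels given for the adipocyte class, and the part of free RNA in these decreases was not tested. Among the strongest decreases were Hmga2 (-3.07), the serotonin receptor gene Htr2b (-2.96), Insyn2b (-2.93), Cpe (-2.92), Lysmd4 (-2.82) and Fth1 (-2.68).

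Perivascular genes split in the macrophage class. F13a1 was at 1090 and 1307 CPM against 3523 and 2598 (1.36, SE 0.19, edgeR adjusted p 0.00117), Mrc1 at 960 and 1097 against 1702 and 1339 (0.57, SE 0.15, edgeR adjusted p 0.0245), and Timd4, a receptor of long-lived resident macrophages, rose by 1.70. Vsig4, the complement receptor CRIg, fell by 1.35, and the other 9 of the 13 were not called. Adipocyte transcripts were also higher in this class, with 11 of 13 adipocyte markers called higher. These markers include adipocyte gate genes, whose level the class rule limits, so their count is a description. Adrb3, a gate gene, was at 1.17 and 3.77 against 22.6 and 68.1 CPM, and Mageb18 (3.89), Peg3 (3.54) and Ghr (2.74) rose too. In free RNA Adrb3 was at 12.3 and 20.0 CPM in mCherry HFD and 139 and 145 in Tert HFD; its part in these increases was not tested. Without mCherry HFD rep128 753 genes were called in the macrophage class, and without rep129 1631.

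In stromal-class barcodes 2388 of 15922 genes were called with groups apart, 750 higher (4.71%) and 1638 lower (10.3%). Among the lowest were Insyn2b (-3.42), Egfros (-3.23), the cadherin gene Fat3 (-3.22), Fth1 (-3.03) and Ftl1 (-2.92), and among the highest were Taco1 (3.43), Slc7a10 (2.85), Mageb18 (2.69) and Nrg4 (2.40). Of the 16 lipid-associated macrophage genes 13 were lower here as well, Gpnmb from 350 and 389 to 86.7 and 94.3 CPM, as were 11 of 13 general macrophage markers, while 8 of 13 adipocyte markers were higher. Of barcodes past the stromal gate, 32.04 and 31.1% in mCherry HFD and 12.1 and 4.26% in Tert HFD also passed the macrophage gate. The adipocyte gate was also passed by 1.58 and 2.64% against 11.1 and 14.3%. Barcodes past another gate were left out of the class. The part in these changes of macrophage or adipocyte RNA below the other gates' limit was not tested. Both marker lists include gate genes, whose level the class rule limits, so their counts are a description. Calls numbered 412 without mCherry HFD rep128, 505 without rep129 and 979 without Tert HFD rep136.

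The 3 classes largely shared the tissue's direction. Of the genes called higher in tissue, 1776 of 1963 tested had the same sign in the adipocyte class, 1630 of 1714 in the macrophage class and 1758 of 1829 in the stromal class. Of those called lower, 1743 of 1754, 1682 of 1685 and 1695 of 1697 did. The tissue sums contain these barcodes, so these counts are no independent support. Of the ribosomal protein genes tested, 5 of 82 were called lower in the adipocyte class, 68 of 80 in the macrophage class and 69 of 81 in the stromal class, beside 0.669, 11.6 and 10.3% of all genes tested in each.

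**Figure D5:**
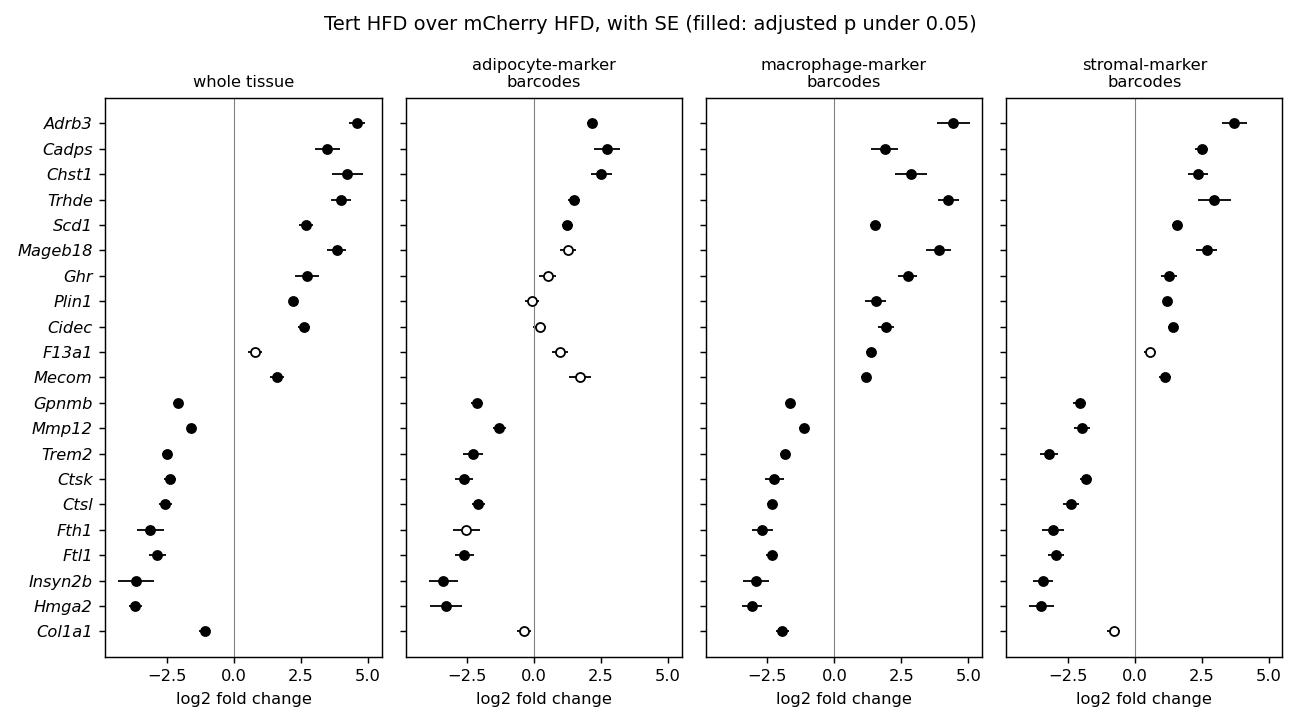
Log2 fold change, Tert HFD over mCherry HFD, with its SE, for 21 genes in whole tissue and in each marker class; filled points have an edgeR adjusted p under 0.05. Gpnmb is called lower in all 4 panels. Adrb3, Plin1 and Cidec are adipocyte gate genes, so the class rule bears on their level in the class panels and their points there are a description. The genes were picked for drawing after their values were known.

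The groups that entered only to share the spread are set beside these values. Against TertCi HFD, the Tert HFD libraries differed in 0 of 22678 genes by edgeR, with 1364 at an unadjusted p under 0.05, and DESeq2 called 23. No gene was called by edgeR in that contrast in any marker class. TertCi HFD against the same mCherry HFD libraries gave 7221 calls (31.8%), and the 2 contrasts share those controls. Gpnmb stood at 89.6 and 90.9 CPM in TertCi HFD rep138 and rep140, and Adrb3 at 265 and 298.

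On the standard diet Adrb3 stood at 447 and 538 CPM (rep144 before rep146), Gpnmb at 13.9 and 10.97, and Hmga2 at 1.13 and 1.08. Between Tert HFD and mCherry SD 257 of 22678 genes (1.13%) were called.

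Among genes at 50 CPM or more, the widest gaps between the 2 Tert HFD libraries were in Mir6236 (434 and 18627 CPM, against 133 and 903 in mCherry HFD), Tmem267 (19.6 and 424, against 19.9 and 24.0), Wdr17 (109 and 9.40, against 140 and 584), Rn18s-rs5 (9949 and 103360, against 2562 and 5208) and Taco1. Of the first 4 only Rn18s-rs5 was called (3.87, SE 1.04, edgeR adjusted p 0.0401), and not without rep136 (1.38). Its call was also lost without either mCherry HFD or either TertCi HFD library.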

How the data were processed

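Nuclear RNA of 8 libraries, 2 mice in each of 4 groups, was deposited by the authors as unfiltered UMI counts per barcode and feature (56749 features). The submitters' processing notes list Cell Ranger 5.0.1, bcl2fastq 2.20.0 and mm39, while the deposited matrix headers name Cell Ranger 7.1.0. Counts were summed per library over barcodes with at least 1000 UMIs and at most 5% mitochondrial UMIs, a limit that removed none. Per the labels' protocols, samples were prepared 2 at a time in random order; which ones shared a batch is not given in the sources used here, so no batch could be fitted, and batch and genotype cannot be told apart. edgeR 4.0.16 (TMM scaling, filterByExpr, quasi-likelihood test, Benjamini-Hochberg adjustment at 0.05) was fitted over all 8 libraries with 4 residual degrees of freedom. P-values measure the spread between single mice. On simulated counts for this contrast over 22678 genes, the test recovered 6% of 100 genes changed 2-fold and 49% of 100 changed 4-fold. No other gene was changed there, and 4 unchanged genes were called. Far more genes were called in the data, so these rates need not hold for them. Alternatives included DESeq2 1.42.0. Named were the 15 called genes of at least 50 CPM with the highest and lowest fold changes, up to 4 genes per list, and the 5 widest gaps between the Tert HFD libraries; within classes, and for Cidea, Pparg, Cdkn2b, Lamp1, Atp6v1a, Mcoln1 and the last 4 genes of the closing section, genes were chosen after their values were seen. Some genes that this rule names are not reported here. The members and lists were chosen with earlier results of these data known.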

Additional observations from a re-analysis of the deposited data

Results flagged for a closer look

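In 4 genes the macrophage-class and stromal-class barcodes were both called, in opposite directions. Nrcam, a neuronal adhesion molecule, fell by 1.60 (log2) in the macrophage class and rose by 1.09 in the stromal class. Frmd6 fell by 0.60 and rose by 0.68, and Plau, the urokinase protease, fell by 0.84 and rose by 0.66. Gm12811 went the other way, with 1.79 in the macrophage class and -1.38 in the stromal class. The difference between the classes was itself not tested, and 402 higher and 1070 lower genes were called the same way in both classes.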

How the results depend on the processing

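With 2 mice a group and unequal depth, counts of calls depended on single libraries. Against 4249 calls in whole tissue, scaling by library totals gave 2740, no filter on low counts 7065, the 4 libraries alone 2704, and leaving out 1 library 197 to 5303. The 182 calls of adipocyte-class barcodes became 2517 with no filter, 973 by DESeq2, 730 with the 4 libraries alone, 107 with 3 gate genes and 0 to 1098 with 1 library left out. The 2708 calls of the macrophage class became 1563 by DESeq2 and 753 to 2898 with 1 library left out; the 2389 of the stromal class became 3650 with no filter, 1522 by DESeq2 and 412 to 2809. Tert HFD against TertCi HFD gave 0 calls, 270 with no filter, 23 by DESeq2 and 0 in each fit without 1 library (506 to 2094 at an unadjusted p under 0.05). The causes were not tested. The stromal share difference of -0.525 percentage points became 0.537 at 2000 UMIs. Of 2843 values of 124 genes under alternatives, 2455 kept direction and side of the threshold, 331 lost the call, 28 gained it and 29 changed sign. Gas6 became -0.00011 with RLE scaling, -0.0051 with upper quartiles, -0.27 with library totals, -0.039 with a minimum of 50 UMIs, -0.0022 by DESeq2, -0.025 at 2000 UMIs, -0.26 over all barcodes, -0.031 with thinned libraries, and -0.24 to 0.32 with 1 library left out. Mrc1 became 0.022 with no filter, 0.015 with the 4 libraries, 0.049 at 500 UMIs, 0.071 over all barcodes, 0.027 without barcodes above 20000 UMIs, 0.024 with thinned barcodes, and -0.36 to 0.31 with 1 library left out. Library totals gave -0.12 for Igf1 and -0.25 for Frmd6, and thinned libraries -0.00059 for Frmd6. With 1 library left out Igf1 ran from -0.0084 (without Tert HFD rep134) to 0.37, Nrcam from -0.27 to 0.034 (without mCherry HFD rep129), Mir6236 from -0.23 to 6.17 and Tmem267 from -0.13 to 4.28, both lowest without Tert HFD rep136. No paired analysis was possible because the replicate numbers differ between the groups.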
